A study of Bos taurus with 12 samples.

Results

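GRIK1, GABRB1, CSMD3 and DLGAP1 are genes whose proteins work at synapses between neurons, and all are nearest-gene annotations of tiles compared between bull sperm groups. Their tiles were taken by the gene description in the authors' deposited table, which gave 17 tiles of 7290, and 4 genes of the 540 gene IDs named there. CSMD3 has 10 of these tiles, GABRB1 has 4, DLGAP1 has 2 and GRIK1 has 1. Receptor and adhesion are loose words for this set: GRIK1 and GABRB1 encode receptor subunits, CSMD3 a large transmembrane protein and DLGAP1 a scaffold protein.

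The samples are sperm of Bos taurus, 6 labelled low BFI and 6 labelled high BFI, from a series on bull fertility. The labels do not say what BFI stands for, give no age, breed or treatment, and do not say whether each sample is a different bull. Sperm DNA was read by enzymatic methylation sequencing, in which unmethylated cytosines are converted by enzymes. Each listed tile is a window of 500 bp, with starts on a grid of 100 bp. For each tile the table holds the methylation difference, read here as percentage points, with its p-value and q-value. It does not say which group was subtracted, so signs are those of the table and neither group is called the more methylated. It holds no level for a single sample, so the spread between samples and the depth are unknown.

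Fast signalling between neurons runs through ion channels opened by a transmitter: glutamate receptors mostly excite the receiving cell and GABA type A receptors mostly inhibit it. Beneath excitatory synapses, scaffold proteins hold receptors and signalling proteins in place, and large membrane proteins with adhesion-type domains help cells contact one another. Mature sperm transcribe little or nothing, and their DNA is methylated over most of the genome, with CpG islands of many promoters left unmethylated. A methylation difference in sperm is therefore not a measure of expression of these genes.

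Across the 4 genes the differences were small and of both signs. In the authors' deposited table, 12 of the 17 tiles had a q under 0.05, against 71.8% of all listed tiles, so the share is near the background. None of the 17 reached 10 percentage points at that q, a size that 2.78% of listed tiles reached, while 11 of the 17 had a deposited p under 0.05, against 65.8% of listed tiles. The count was also 11 with a q under 0.01, against 59.7%, and with Benjamini-Hochberg adjustment of the deposited p over the listed tiles, against 62.5%. The median difference over the 17 tiles was -0.39 percentage points and over all listed tiles -0.95. The median size, sign aside, was 1.37 against 1.48. Negative differences made up 9 of the 17 tiles, against 71.6% of all listed tiles. With a q under 0.05, 7 tiles were negative, against 55.9% of all listed tiles, and 5 were positive, against 15.9%. At that q, 1 tile reached 5 percentage points, against 15.4%, and 6 reached 2 percentage points, against 41.9%. By gene, GRIK1 and GABRB1 were positive in every listed tile, DLGAP1 was negative in both, and CSMD3 had 7 negative and 3 positive tiles. Tiles of a gene overlap and share cytosines, so they are not replicates.

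**Figure D1:**
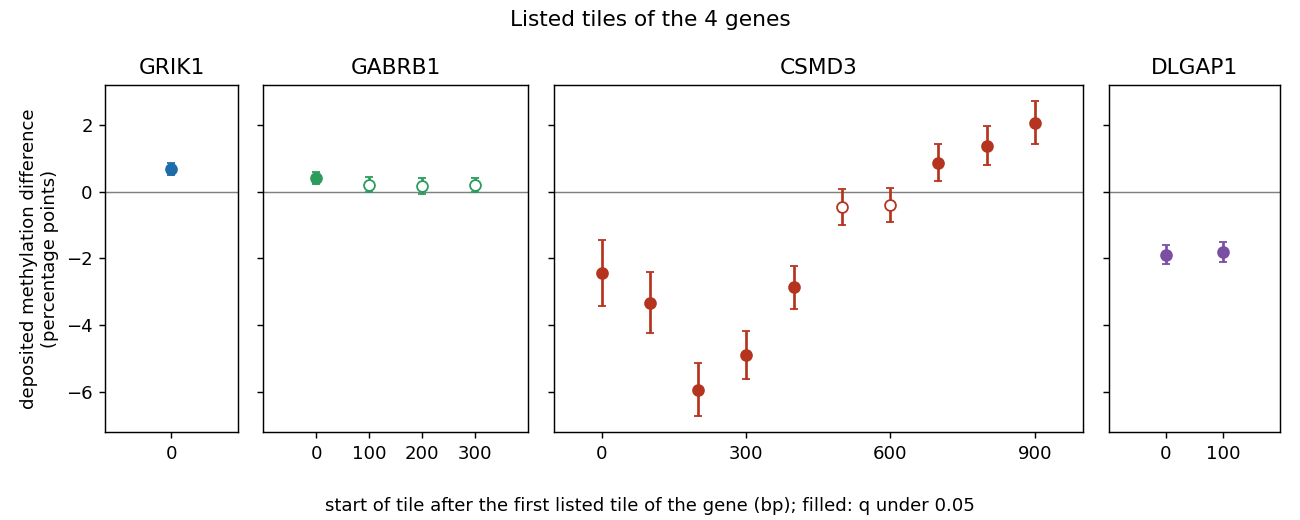
Deposited methylation difference in percentage points (y axis) of the 17 tiles against the start of each tile in bp after the gene's first tile (x axis), with bars of 1 implied standard error and filled points for a q under 0.05. The points of GABRB1 and DLGAP1 and the single point of GRIK1 do not change sign, while CSMD3 runs from -5.92 to 2.06. The bars of the unfilled GABRB1 points cross 0.

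An error for each difference was taken from its deposited p, read as a two-sided normal p, and is called the implied standard error here. It reflects what the authors' test counts as error, and no source used here says whether that includes the variation between bulls. The median implied standard error was 0.54 percentage points over the 17 tiles and 0.50 over the listed tiles with a p above 0. It was 0.19 in GRIK1, 0.18 to 0.24 over the GABRB1 tiles, 0.28 and 0.30 in DLGAP1 and 0.51 to 0.99 over the CSMD3 tiles. A difference of 0.68 percentage points in GRIK1 had a deposited p of 0.000434. One of -2.44 at the start of the CSMD3 stretch had a deposited p of 0.0138. Each error is computed from that same p, so it restates the p and does not explain it.

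GRIK1 encodes a subunit of kainate receptors, which are glutamate-gated ion channels. Its identifier is ENSBTAG00000034854, and its tile lies on chromosome 1 of assembly ARS-UCD1.2, from 6112201 to 6112700. The authors' deposited table gives a difference of 0.68 percentage points, with a p of 0.000434 and a q of 0.000280. The implied standard error is 0.19. On its chromosome, 78.5% of listed tiles had a q under 0.05, and 76.7% of listed tiles were negative. The difference is small among listed tiles, since 68.1% of them had a larger one in either direction.

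The GRIK1 tile is classed as promoter and contains a whole coding segment of 118 bp, from 6112447 to 6112564. It also lies entirely within a CpG island of 1478 bp, from 6111750 to 6113227. Such islands are CpG-rich stretches, often at gene starts. The island is not given as the tile's own annotation, but it is the closest feature of 6 other tiles, 68250 to 68750 bp before it. Those 6 tiles were all negative in the authors' deposited table, from -1.26 to -0.57 percentage points, and all had a q under 0.05. The GRIK1 tile and the nearest other listed tiles on its chromosome thus had opposite signs. Further off, 341200 bp before the GRIK1 tile, 4 tiles of CLDN8, a tight junction gene, were positive, from 0.35 to 1.14 in the authors' deposited table. In the other direction no tile was listed for 17448100 bp.

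GABRB1 encodes the beta1 subunit of GABA type A receptors, which are chloride channels opened by the inhibitory transmitter GABA. Its 4 tiles (ENSBTAG00000017837) cover 800 bp on chromosome 6, from 65612101 to 65612900, and are all classed as within the gene. In the authors' deposited table the differences were 0.40, 0.20, 0.16 and 0.20 percentage points in order of position. The largest of these values belongs to the first tile, from 65612101 to 65612600, and the whole range over the 4 tiles is 0.25.

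The first GABRB1 tile alone passed, with a p of 0.0209 and a q of 0.00378 in the authors' deposited table. The q of the other tiles lay between 0.0534 and 0.0791, but their deposited p lay between 0.328 and 0.513. On chromosome 6, 89.6% of listed tiles had a q under 0.05. Of all listed tiles there, 88.1% were negative, with a median difference of -4.00 percentage points, while the GABRB1 tiles were positive. A coding segment of 92 bp, from 65612190 to 65612281, lies wholly in the first tile. The second tile holds 81 bp of it, and the third and the fourth hold none. Of the intron after it, from 65612282 to 65612711, the third tile holds 411 bp and the fourth 311 bp, and both run past its end. The gap between the first tile and the second, 0.20 percentage points, is about the size of a single implied standard error (0.18 for the first and 0.22 for the second), and that gap was not tested. The GABRB1 differences are among the smallest listed: 78.6% of listed tiles exceeded the first tile in size and 91.2% exceeded the third. No other tile was listed within 4717400 bp before or 4108100 bp after them.

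DLGAP1 encodes a scaffold protein of the postsynaptic density that binds DLG-family proteins such as PSD-95. Its 2 tiles (ENSBTAG00000005372) lie on chromosome 24, from 37599401 to 37599900 and from 37599501 to 37600000, and share most of their bases. Their differences in the authors' deposited table were -1.89 percentage points, at q = 9.02e-12, and -1.82 percentage points, at q = 8.37e-10. The implied standard errors are 0.28 and 0.30, and the 2 values differ by 0.07. Both passed, on a chromosome where 72.8% of listed tiles did and 52.2% of listed tiles were negative.

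Both DLGAP1 tiles overlap a coding segment of 422 bp on the minus strand, from 37599379 to 37599800. The first tile holds 400 bp of the segment and the second 300 bp. Over all 275 listed tiles that lie within a gene and are closest to coding sequence, the median difference was -0.12 percentage points and the median size 0.55. Both DLGAP1 tiles are larger than that median size, while 43.7% of all listed tiles exceeded the first of them.

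**Figure D2:**
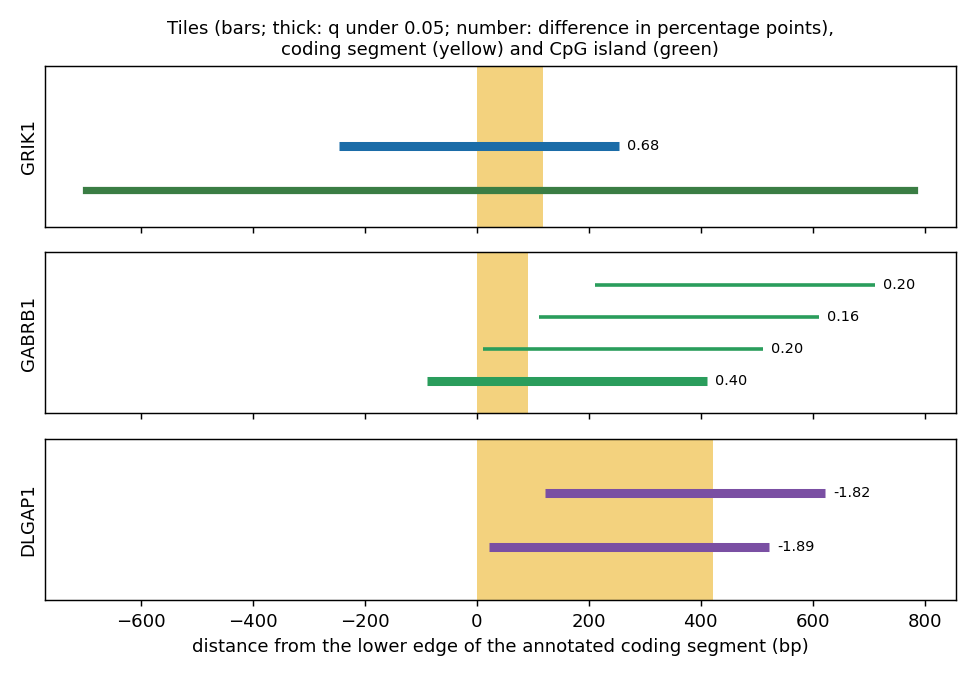
Tiles of GRIK1, GABRB1 and DLGAP1 as bars against distance in bp from the lower edge of the annotated coding segment (x axis; yellow), with the deposited difference in percentage points at each bar and thick bars for a q under 0.05. The GRIK1 tile contains its 118 bp segment and sits inside the CpG island (green), the first GABRB1 tile contains its 92 bp segment, and both DLGAP1 tiles cover most of the 422 bp segment.

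CSMD3 encodes a very large transmembrane protein built of repeated CUB and Sushi domains and studied in dendrite development. It had the largest difference among the 4 genes and the only change of sign. Its 10 tiles (ENSBTAG00000038281) start at every grid position of a stretch of 1400 bp on chromosome 14, from 52066501 to 52067900. All lie inside an intron of 96414 bp, from 51977150 to 52073563, and the stretch ends 5663 bp before the upper edge of that intron. No other tile was listed within 5901500 bp before it or 1430800 bp after it.

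Along the stretch the difference went from negative to positive. The first tile, from 52066501 to 52067000, stands at -2.44 percentage points with q = 0.00264 in the authors' deposited table. The lowest value and the smallest q are those of the third tile, from 52066701 to 52067200, at -5.92 percentage points (q = 5.87e-14). The highest is the last, from 52067401 to 52067900, at 2.06 percentage points (q = 0.000337). Their implied standard errors are 0.99, 0.80 and 0.65.

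In all, 8 of the 10 CSMD3 tiles had a q under 0.05, 5 of them negative and 3 positive. On chromosome 14, 91.5% of the listed tiles had such a q, and 91.1% were negative. Of listed tiles within introns, 71.4% had such a q. The 2 tiles that did not pass lie between the negative and the positive ones. The authors' deposited table has them at -0.45 and -0.39 percentage points, with q = 0.0640 and 0.0697 but p = 0.405 and 0.445. For the smallest of the positive values, 0.87 percentage points, the authors' deposited table has a q of 0.0191 and a p of 0.113. The other two positive tiles had a p of 0.0189 and 0.00162.

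Because tiles overlap by 400 bp with their neighbours, the change of sign was also read from pairs that share no base. Each of the first 5 tiles has such a partner 500 bp on. In all 5 pairs the second tile was higher, but the sign changed in 3 of them. In the first and the second pair the later tile was still negative, at -0.45 and -0.39 percentage points in the authors' deposited table. The gap was smallest between the first tile and the sixth, 1.99 percentage points, and largest between the third and the eighth, 6.79. These pairs overlap one another, so they are not 5 separate observations, and the gaps were not tested.

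**Figure D3:**
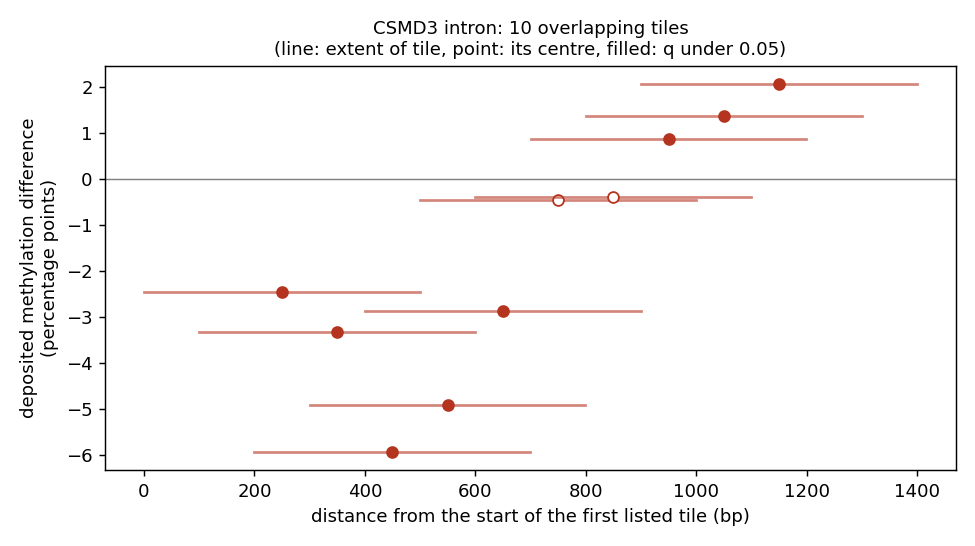
Deposited methylation difference in percentage points (y axis) of the 10 CSMD3 tiles against distance in bp from the start of the first tile (x axis), with a line for the extent of each tile, a point at its centre and filled points for a q under 0.05. The first 5 tiles lie between -5.92 and -2.44 and the last 3 between 0.87 and 2.06.

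The range within the CSMD3 stretch was wide for the table, but a change of sign was not rare. Joining tiles that share bases gives 1475 stretches, of which 149 have at least 10 tiles. Of these, 48 (32.2%) held tiles with a q under 0.05 in both directions. The CSMD3 range of 7.99 percentage points was exceeded in 12 of the 149, whose median range was 4.18. From tile to tile, 100 bp apart, the CSMD3 difference changed by a median of 1.03 percentage points, against 0.29 over 5597 such pairs in the table. The CSMD3 tiles had a median implied standard error of 0.65, against 0.50 over listed tiles with a p above 0. Steps were not compared among pairs of similar error. The largest single step in CSMD3, 2.60, lies between the second tile and the third. Steps of at least that size were found in 76 of those pairs. Within introns, the 704 listed tiles had a median difference of -0.84 percentage points, and the 10 CSMD3 tiles one of -1.45. Over the listed tiles of chromosome 14 the median was -4.67 percentage points. The median size there was 4.67, against 2.25 over the CSMD3 tiles.

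**Figure D4:**
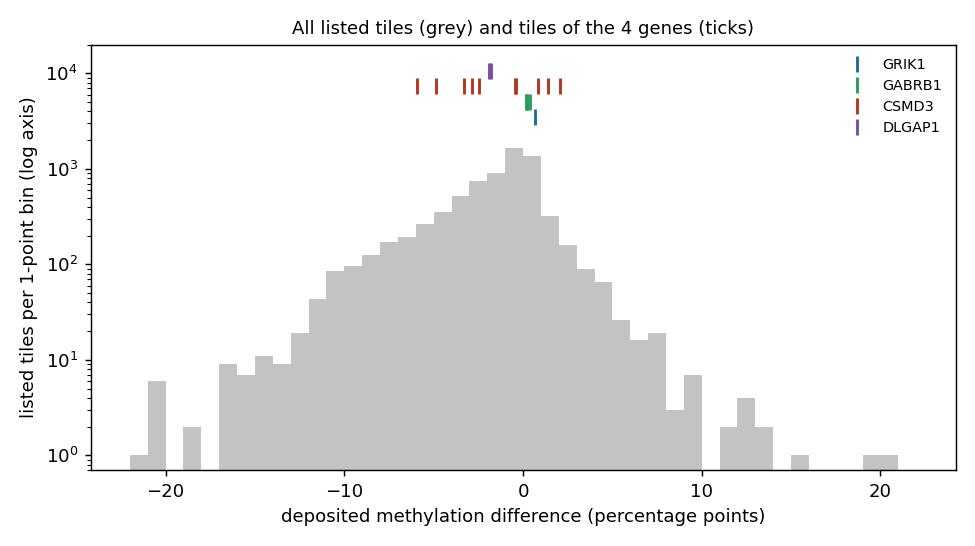
Number of listed tiles per 1-point bin of deposited methylation difference (y axis, log scale; x axis in percentage points; grey), with a tick for each tile of the 4 genes. All 17 ticks lie between -5.92 and 2.06, while listed tiles run from -21.3 to 20.8.

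The deposited q-values of these genes depend on their chromosome. Within each of the 27 chromosomes q never decreased as p increased, whereas over the whole table ordered by p it decreased 3204 times. The same p can therefore carry a different q on another chromosome. For GRIK1 the q was 0.65 times its p, and for the DLGAP1 tiles 0.84 and 0.71 times. For GABRB1 the ratio was 0.15 to 0.18 and for CSMD3 0.16 to 0.50. All 17 q-values lie below their p, as do 5007 listed tiles in all. In 441 listed tiles, 1 of them the CSMD3 tile at 0.87 percentage points, q was under 0.05 while p was not.

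**Figure D5:**
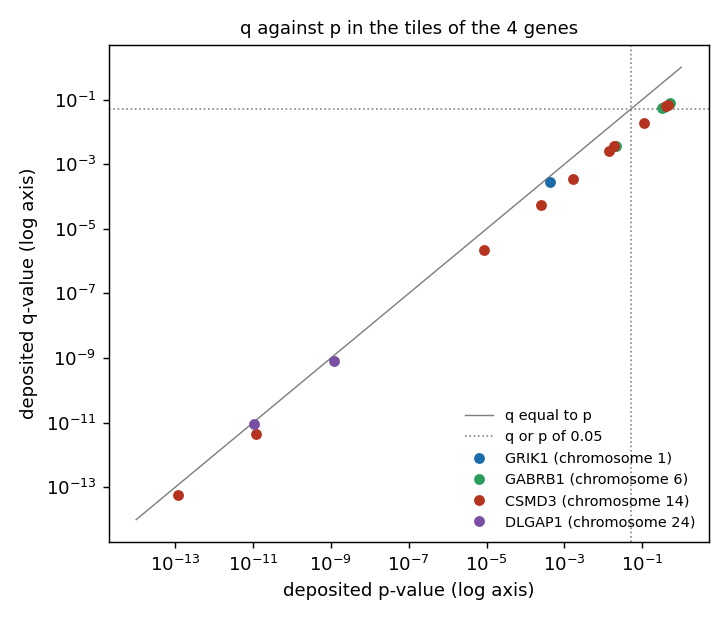
Deposited q-value (y axis) against deposited p-value (x axis), both on log axes, for the 17 tiles, with the line of equal values and dotted lines at 0.05. All points lie below the line, and 1 CSMD3 tile lies under 0.05 in q and above it in p.

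Of a wider list of synapse genes (transmitter receptors, adhesion proteins, scaffolds and release proteins), 10 are in the table, the 4 genes above included. No other receptor or scaffold of the list is among them. All 10 had a tile with a q under 0.05, against 73.3% of the 540 genes, and none reached 10 percentage points, against 3.52%. With a q under 0.01 it was 7 of the 10, against 57.2%, and with the Benjamini-Hochberg adjustment 8, against 63.3%. Counting only tiles within the gene, 7 had a q under 0.05, against 42.8% of the 540 genes, some of which have no tile within them. Tiles with such a q were negative in 5 genes, positive in 4 and of both signs in CSMD3. The shares of the 540 genes by sign are not given. Of all listed tiles, 55.9% were negative with such a q and 15.9% positive. Taking the largest difference of each gene, the median size was 0.71 percentage points over the list and 0.84 over all genes with an ID. The list was set with earlier results of these data known.

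Among the adhesion genes, IL1RAPL1, a synaptic adhesion protein related to interleukin receptors, had the largest values of the list. Its 8 tiles on chromosome X ran from -9.84 to -4.92 percentage points in the authors' deposited table, but all are distal intergenic, 140440 to 148140 bp from its coding sequence. TENM4, a teneurin, had 2 tiles, at -0.29 (q = 0.229) and -0.74 percentage points (q = 0.0449; p = 0.0405) in the authors' deposited table. With the Benjamini-Hochberg adjustment over listed tiles the TENM4 tile at -0.74 had 0.0629. For PCDHA13, a clustered protocadherin, the authors' deposited table has -0.47 percentage points at q = 0.00831. A tile described as protocadherin gamma subfamily A, 5 (PCDHGA5) had -0.81 percentage points there, with a q of 0.0461 but a p of 0.0637, which the Benjamini-Hochberg adjustment over listed tiles took to 0.0942. Protocadherin clusters hold similar copies, so both are uncertain.

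The release genes were positive. VAMP1, a vesicle protein of the fusion machinery, had 3 tiles, at 0.19, 0.30 and 0.54 percentage points in the authors' deposited table, with q = 0.159, 0.0750 and 0.0168. SYT11, a synaptotagmin of vesicle traffic, had 4 tiles from 0.51 to 0.65 percentage points in the authors' deposited table, all with a q under 0.05. In size these are close to GRIK1 and GABRB1.

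With no value per sample, likeness between genes could be judged only from the largest difference of each gene whose tile has the same position class and feature type. Genes with no description, or with "-like", "uncharacterized" or "mRNA" in it, were left out, so the numbers of genes compared exclude them. For GRIK1, nearest of 18 genes were EXT1, a heparan sulfate polymerase subunit, at 0.68 percentage points, and TESK1, a testis-expressed kinase, at 0.63. For GABRB1, nearest of 104 were GORASP1, a Golgi protein, and CRABP1, a retinoic acid binding protein, both at 0.39. For CSMD3 they were TKDP1 at -5.94 and LHFPL1 at -6.72, and for DLGAP1, of 54, AP1AR at -1.98 and CYP26A1, which degrades retinoic acid, at -1.67. These are the values of the authors' deposited table, and 1 value per gene describes no shared pattern. In that table the GORASP1 tile had a q of 0.165. The tiles of EXT1, CRABP1 and AP1AR had a q under 0.05 but a p of 0.0639, 0.102 and 0.0684. Those of TESK1, TKDP1, LHFPL1 and CYP26A1 had both under 0.05.

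None of the leukocyte markers looked for and none of the epithelial and accessory gland markers is a gene of the table, and 4 sperm or germ cell genes are. The listed tiles therefore do not show whether other cells of the ejaculate contributed DNA, and the labelled cell type could not be checked.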

How the data were processed

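The 12 samples were grouped by their titles into low BFI and high BFI. Per the submitters' processing notes, the tools were Trimmomatic, Bismark and methylKit and the builds ARS-UCD1.2 and bosTau9, without versions or settings. Per the file headers, the authors deposited p-values, q-values and a methylation difference for each tile, entered here as a score because the unit is not stated. No column holds a single sample, so 0 columns were unmatched and no test between the groups was run. Counts use the deposited q under 0.05, with or without 10 percentage points in either direction. The implied standard error is the size of the difference divided by the two-sided normal deviate of p. Steps were tested on simulated data. Gene symbols were assigned by hand from the descriptions. Of those named here, every one but PCDHGA5 lies on the same chromosome in a RefSeq gene table of ARS-UCD2.0, used for names only. For the 4 genes, every tile is reported where a gene has at most 6, otherwise the largest of each sign, the smallest q and both ends; other CSMD3 tiles, CLDN8 and the islands were chosen after their values were seen. Every gene of the wider list was named, having at most 12, and 2 alike genes per member. The members and lists were chosen with earlier results of these data known. Values were computed with pandas 2.3.3, SciPy 1.17.1 and NumPy 2.4.6 under Python 3.11.15 and drawn with matplotlib 3.10.9.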

Additional observations from a re-analysis of the deposited data

How the results depend on the processing

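With only tiles that share no base, the count of tiles with a q under 0.05 fell from 12 to 4 for the 4 genes. It fell from 8 to 1 for CSMD3 and from 2 to 1 for DLGAP1, and stayed at 1 for GRIK1 and GABRB1. Tiles with a negative difference fell from 9 to 3. Fewer tiles are counted here, so these are not falls in a share, and the share over all such listed tiles is not given. Taken from the first tile on, CSMD3 keeps its first and sixth tiles, at -2.44 and -0.45 percentage points in the authors' deposited table. Its positive tiles, and with them the change of sign, drop out. A minimum of 5 percentage points gave 1 tile and of 2 percentage points 6 tiles, against 0 at 10. Of listed tiles 15.4% and 41.9% reached these sizes at that q. The CSMD3 median moved from -1.45 to -2.65 percentage points over its tiles with a q under 0.05. In an alternative chosen after seeing the data it was -3.32 over the first 5 tiles and 0.87 over the last 5. With a q under 0.01, a p under 0.05 or Benjamini-Hochberg adjustment over the listed tiles, 11 tiles of the 4 genes passed, against 59.7%, 65.8% and 62.5% of listed tiles, and the CSMD3 count was 7. No paired analysis was possible because the table holds no values per sample, and for the same reason no sample could be left out. Depth is unknown.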

Other observations

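Other genes with links to synapses, or only from a family with such members, lie outside the list and were chosen after their values were seen. CNIH3 and CNIH4, of the cornichon family that includes AMPA receptor auxiliary proteins, both have intronic tiles on chromosome 16. CNIH4 had 3 tiles, all positive, from 0.62 to 0.96 percentage points in the authors' deposited table. CNIH3 had 5 tiles that ran from -0.30 to 0.72 percentage points in the authors' deposited table, with both negative tiles at a q above 0.05 and the positive ones below it. ICAM5, a dendrite adhesion protein, had 4 negative tiles, of which the authors' deposited table has 1 under a q of 0.05, at -0.55 percentage points and q = 0.0306. KIRREL3 had 1 tile, at -1.43 percentage points (q = 0.0693) there.

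The last 2 IL1RAPL1 tiles, 100 bp apart, have the same difference, -4.92 percentage points, and the same q, 2.50e-05, in the authors' deposited table.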
